A study of Mus musculus with 18 samples.

Results

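The genes described here are 40 mouse genes of the lysosome and of autophagy, together with the transcription factors that read their E-box motifs. They comprise 5 factor genes (Tfeb, Tfe3, Mitf, Usf1 and Usf2), 4 genes of lysosomal membrane proteins, 15 of luminal lysosomal proteins, 8 of subunits of the vacuolar proton pump (V-ATPase) and 8 of autophagy, out of 21887 protein-coding genes on the assembled nuclear chromosomes. All 40 were found by symbol in the RefSeq gene table. A gene was counted as bound in a library when the summit of a MYC peak lay within 1 kb of either end of its span (mm10). The lists come from chromatin immunoprecipitation with an antibody to MYC (ChIP-seq) in liver tumours of FVB mice. These mice make MYC from a TRE-MYC transgene, under a liver-specific LAP-tta driver, once doxycycline is taken out of the drinking water, and tumours were taken at death. The WT group had the genotype LAP-tta-Arid1aflfl;TRE-MYC, that is floxed Arid1a without Cre, at about 55 days. The Het group carried LAP-tta-Arid1afl/+ together with Alb-cre and TRE-MYC and was about 70 days old. The Homo group carried LAP-tta-Arid1afl/fl with the same Alb-cre and TRE-MYC and was about 100 days old. Albumin-Cre acts in hepatocytes, and cells of a tumour in which it is not active keep Arid1a. Between WT and either other group, Arid1a dose, Cre and age changed together. Between Het and Homo, which share Alb-cre, Arid1a dose and age changed together. Within each comparison these cannot be told apart. Each genotype had 3 MYC libraries with a peak list each. Nothing in the labels says whether the 3 came from separate animals, so p-values between genotypes reflect no more than how these libraries vary, and that variation may be technical.

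Lysosomes digest material that reaches them by endocytosis or by autophagy, in which a double membrane closes around cytoplasm and fuses with the lysosome. The V-ATPase pumps protons into the lumen, where acid hydrolases such as the cathepsins work. Many genes of this system carry E-boxes near their start sites, which are read by the basic helix-loop-helix leucine zipper factors TFEB, TFE3 and MITF and by USF1 and USF2. MYC with its partner MAX belongs to the same structural class of factors and recognises the same core, CACGTG.

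The 9 lists differed widely in length, from 51 peaks in Homo replicate 2 to 4291 in WT replicate 3. The lowest local background among the peaks of a library, solved from the peak values, lay between 3.37 and 6.27 reads per kb for the inputs. The same values rescaled to the MYC libraries lay between 7.80 and 15.2. Each count of members is therefore set beside the share of all protein-coding genes bound in the same library. Of markers of the tissue, 1 of 8 hepatocyte genes was bound (Apoa1, in WT replicate 3 only), as were 0 of 7 macrophage, 0 of 3 endothelial, 0 of 3 stellate and 0 of 3 biliary genes. Peak lists do not measure expression, so these counts do not check the cell types of the tumours or the deletion of Arid1a.

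Most lysosome and autophagy genes had no MYC peak at their ends. A peak was found at 11 of the 40 genes in at least 1 library (27.5%, exact 95% interval 14.6% to 43.9%), compared with 14.9% of all protein-coding genes. At 4 genes (10%, interval 2.79% to 23.7%) it recurred in at least 2 of the 9 libraries, compared with 8.03% of all genes: Map1lc3b, Atp6v1d, Atp6v0d1 and Naglu. The other 29 genes were bound in no library. All 11 bound genes were bound in WT replicate 3, the longest list, and 7 of them only there, against 6.26% of all genes bound in that library alone. Without WT replicate 3, 4 members were bound in at least 1 library (8.65% of all genes) and 2 in at least 2 (5.14% of all genes). Leaving out Het replicate 1 also brought the recurrent genes from 4 to 2. Intervals here and below are exact (Clopper-Pearson); they count genes as independent and hold counting error alone.

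By library, 0, 1 and 11 of the 40 members were bound in WT replicates 1 to 3, where 0.0731%, 4.86% and 14.1% of all genes were bound. In Het replicates 1 to 3 the counts were 3, 2 and 0, with 5.58%, 6.14% and 0.854% of all genes. In Homo replicates 1 to 3 no member was bound, with 0.324%, 0.0548% and 0.918% of all genes. A share equal to that of all genes would put 5.65 members in WT replicate 3 and at most 0.367 in any Homo library. For 5 libraries with a count of 0 (1 WT, 1 Het and 3 Homo), the exact interval of 0 of 40 reaches up to 8.81% (3 counts of 40 would be 7.50%), so neither absence nor presence at the level of the other genes could be seen there. In the plot of shares by library, the members stood farthest above all genes in WT replicate 3, 11 of 40 against 14.1%. That margin depends on the settings. It was 8 of 40 against 11.8% at a fold of at least 5, and 9 against 12.3% at a −log10 q of at least 5. After scaling to the shallowest input (described below) it was 2 against 5.55%. With a window of 250 bp it was 9 against 9.43%, and with a window of 5 kb 11 against 18.6%. No test was run on the list. The list of all protein-coding genes includes genes that are silent in these tumours, and expression was not measured here.

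**Figure D1:**
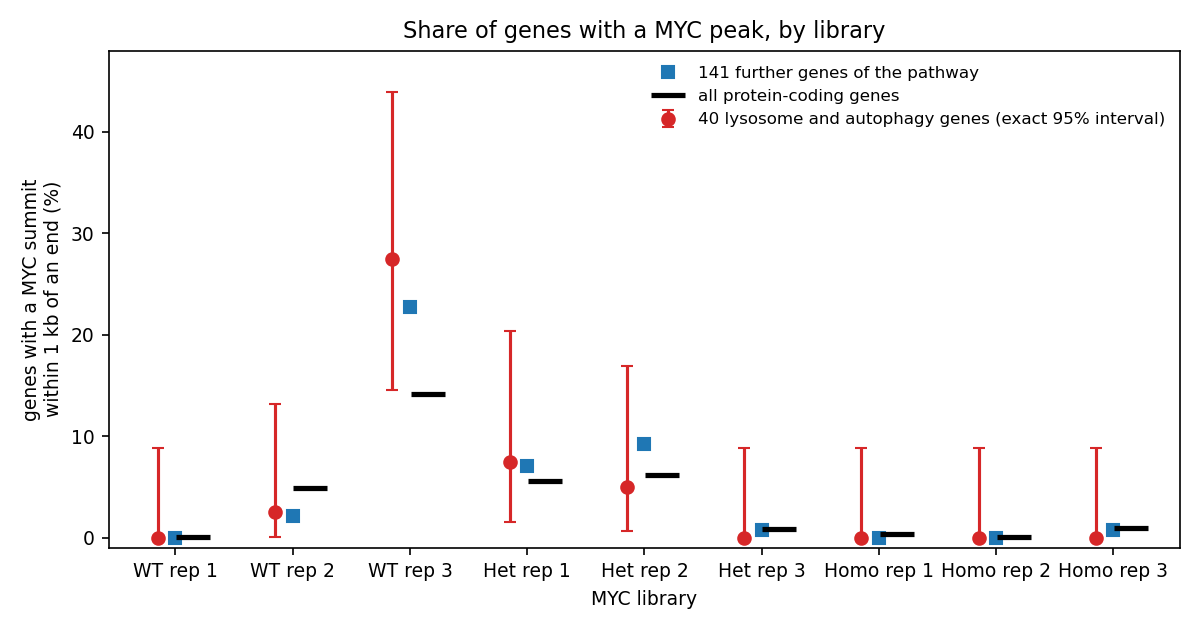
Percentage of genes with a MYC summit within 1 kb of a gene end (y axis) in each of the 9 MYC libraries (x axis). Red points are the 40 lysosome and autophagy genes with exact 95% intervals, blue squares 141 further genes of the same pathways, and black bars all protein-coding genes; the members reach 27.5% in WT replicate 3 and are at 0 in 5 libraries.

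Map1lc3b carried the highest-ranked member peak in each of the 3 libraries that bound it. It encodes LC3B, the ubiquitin-like protein that is attached to lipid on autophagosome membranes. The authors' fold over background at its summit was 11.6 in WT replicate 3, 8.53 in Het replicate 1 and 9.72 in Het replicate 2, and the other 6 lists, those of the 3 Homo libraries included, had no peak there. These folds rested on 74, 86 and 52 MYC reads at the summit, over a local background equal to 4.58, 6.99 and 3.42 reads. They are not the plain ratios of these numbers, since 1 is added to both after scaling to the input. Ranked by p within its own list, the peak stood at 327 of 4291, 346 of 1713 and 336 of 1869. It was the only peak of the 40 genes in the top 10% of a list. The peaks covered chr8:121590193-121590497 in WT replicate 3 and lay within nearly the same bases in both Het libraries, with summits 101 and 118 bases upstream of the start of the gene (span 121590438 to 121598760). No other annotated gene had an end within 1 kb of these summits. The bases before its start site are shown because the most strongly bound member had no CACGTG in its promoter window. The capitals mark the single copy of CGCGTG, the other strand of CACGCG, a non-canonical relative of the E-box that was chosen for display after the values were seen. Sequences are RefSeq's for the C57BL/6J reference (GRCm38.p6), not those of the FVB mice, and are written 5′ to 3′ on the strand of the gene.
Map1lc3b, chr8:121590188-121590437, + strand: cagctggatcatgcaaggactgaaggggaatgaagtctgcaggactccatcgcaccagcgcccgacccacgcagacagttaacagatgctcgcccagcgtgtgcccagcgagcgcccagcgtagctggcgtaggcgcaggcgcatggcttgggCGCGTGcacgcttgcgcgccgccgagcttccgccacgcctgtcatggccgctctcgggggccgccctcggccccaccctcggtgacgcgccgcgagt

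Of the other autophagy genes, Becn1 alone was bound in at least 1 library (14.9% of all genes). It encodes Beclin 1, a subunit of the lipid kinase complex that starts autophagosome formation. Its peak in WT replicate 3 had a fold of 6.09 from 27 reads and ranked 3467 of 4291. The summit lay 755 bases outside the lower end of the span (chromosome 11, 101288258 to 101302286), beyond a window of 250 bp. Sqstm1 (the cargo receptor p62), Uvrag (a partner of Beclin 1), Wipi1 (a lipid-binding protein of forming autophagosomes), Gabarap (an LC3 relative), Atg9a (a lipid scramblase of autophagosome membranes) and Ulk1 (the kinase that starts autophagy) were bound in no library. Ulk1 was the nearest to the limit among all 29 unbound members, with a summit 3862 bases from an end. The next was Gabarap at 10726 bases, and at the other side of the limit Becn1 was the farthest of the bound genes. For 28 of the 29 the nearest summit in any of the 9 lists was more than 10 kb from an end, with a median of 35929 bases over the 29.

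Of the 8 V-ATPase genes, 4 were bound in at least 1 library (14.9% of all genes) and 2 recurrently (8.03% of all genes). Atp6v1d, of the central stalk of the pump, had folds of 4.70 in WT replicate 2, 4.65 in WT replicate 3 and 7.21 in Het replicate 2, from 39, 53 and 38 reads. Its ranks of 1400 of 1567, 2816 of 4291 and 1021 of 1869 placed it in the weaker part of each list. The summits, between 78862091 and 78862141 on chromosome 12, lay 83 to 133 bases outside the gene's upper end (span 78842982 to 78862008) and also within 1 kb of an end of Eif2s1, the gene of a translation initiation factor subunit. The peak can thus not be assigned to 1 of these genes. Atp6v0d1, of the membrane part of the pump, had a fold of 5.07 in WT replicate 3 (48 reads, rank 2640 of 4291) and 8.24 in Het replicate 1 (83 reads, rank 407 of 1713). Those summits lay 64 and 111 bases upstream of its start (chromosome 8, span 105524461 to 105566064), with an end of Agrp also within 1 kb.

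The remaining bound pump genes had a peak in WT replicate 3 only. Atp6v1a, the catalytic subunit, had a fold of 10.9 from 43 reads and ranked 900 of 4291, the second highest rank of a member in that list. Its summit on chromosome 16 (44139891) lay 189 bases outside the gene's upper end and also at an end of Naa50, an acetyltransferase gene. Atp6v1b2, which encodes another subunit of the catalytic head, had a fold of 6.86 from 43 reads (rank 2042 of 4291), 22 bases from its lower end (chromosome 8, 69088736) and within 1 kb of an end of Slc18a1. Atp6v0b, Atp6v0c, Atp6v1c1 and Atp6v1h were bound in no library.

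Peaks at genes of luminal enzymes were mostly weak and single. Naglu, whose enzyme removes N-acetylglucosamine from heparan sulfate, was bound in 2 libraries, with a fold of 3.11 in WT replicate 3 (47 reads, rank 4182 of 4291) and 5.60 in Het replicate 1 (44 reads, rank 1523 of 1713). Both ranks stood near the end of their lists, and both peaks dropped out at a −log10 q of at least 5. Glb1 (beta-galactosidase) had 2 peaks in WT replicate 3, of folds 6.91 and 4.21, at ranks 2794 and 4184. The gene Tmppe had an end within 1 kb of both. Gaa (acid alpha-glucosidase) had a fold of 5.52 at rank 3413. Tpp1 (tripeptidyl peptidase 1) had a fold of 4.31 at rank 3930, but at the end away from its start site, next to an end of Taf10. Of the 4 membrane protein genes, only Mcoln1 (the calcium channel TRPML1) was bound in at least 1 library (14.9% of all genes). In WT replicate 3 it had a fold of 6.60 from 37 reads, rank 2500 of 4291 and a summit 27 bases upstream of its start. In WT replicate 3 the 11 members had a median fold of 6.09, compared with 6.80 over all peaks and 6.72 over the peaks at gene ends, and 3 of the 11 stood in the upper 50% of the list.

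**Figure D2:**
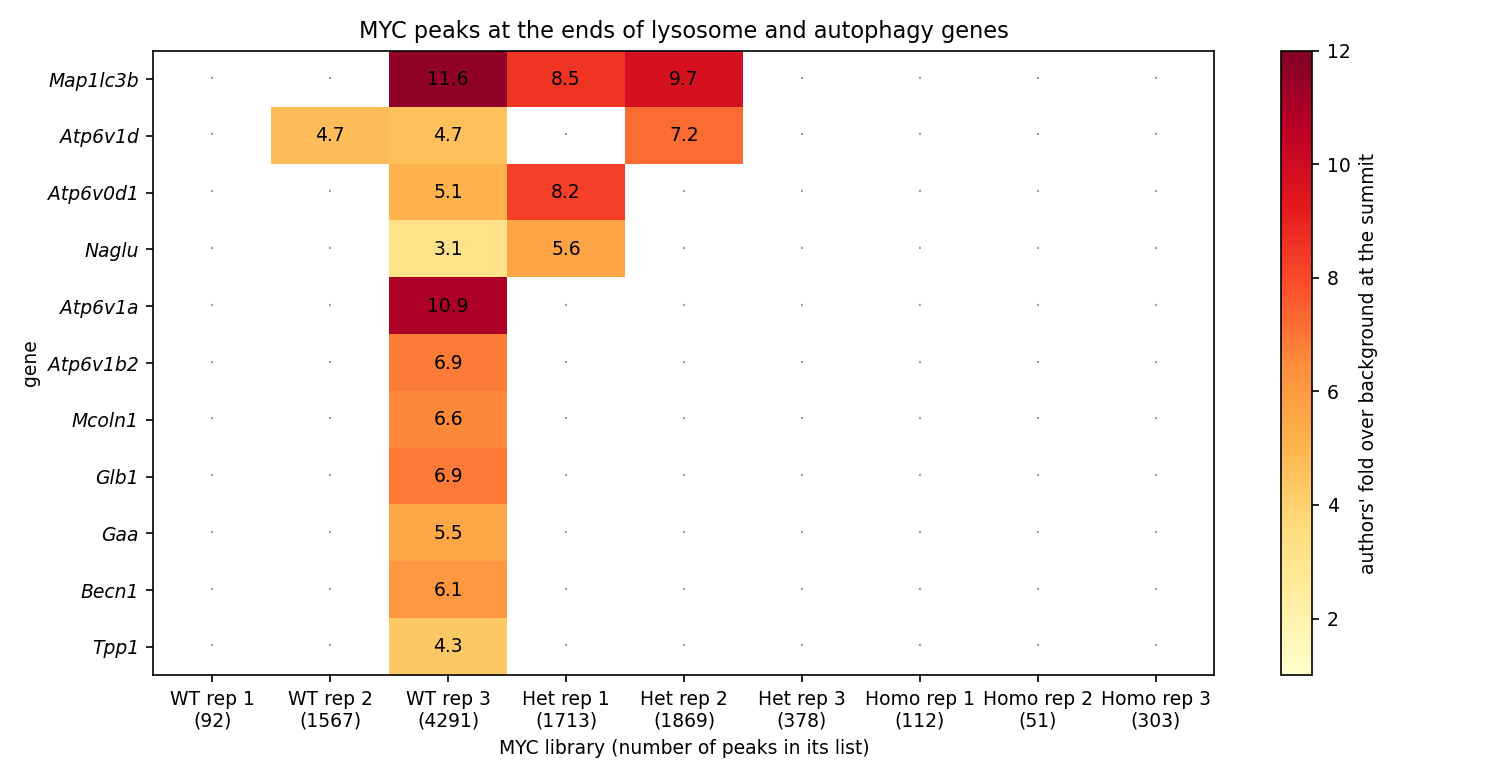
The authors' fold over background at the summit (colour and number in each cell) for the 11 bound genes (rows) in the 9 MYC libraries (columns, with the number of peaks in each list); a dot means no peak within 1 kb of an end. WT replicate 3 has a value in all 11 rows, and Map1lc3b, with 11.6, 8.5 and 9.7, is the highest in each of its 3 libraries.

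None of the 5 members encoding an E-box factor was bound, beside 14.9% of all genes bound in at least 1 library. A count of 0 of 5 cannot be told apart from that share. Tfeb, Tfe3, Mitf, Usf1 and Usf2 had no summit within 1 kb of an end in any library. The nearest, at Usf1, was 84491 bases away. Lamp1 and Lamp2, the major glycoproteins of the lysosomal membrane, and Npc1, which moves cholesterol out of the lysosome, were also unbound. So were Ctsa, Ctsb, Ctsd, Ctsf and Ctsl (cathepsins), Gla, Hexa, Neu1 and Sgsh (enzymes that cleave sugars or sulfate from glycolipids and glycans), Psap (the precursor of sphingolipid activators) and Npc2 (a luminal cholesterol carrier). A summit inside the span but away from the ends was found for Npc1, Wipi1 and Glb1, in 1 library each.

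E-boxes were found at both bound and unbound genes. Promoter windows (250 bases before to 50 after a start site) were available for 33 of the 40 members, and 14 of these (42.4%) held CACGTG, compared with 8.91% of the 17492 protein-coding genes with a window. The motif is its own reverse complement, so both strands were covered. The share is no finding, since the list was drawn up as genes of E-box type. With 1 flanking base (TCACGTG or CACGTGA), the form that TFEB and its relatives prefer, it was 12 of 33 members (36.4%) and 874 of the 17492 genes with a window. CANNTG, the general E-box that includes CACGTG, was in 28 of 33 members and 72.1% of genes. Of the 14 members with CACGTG, 6 were bound and 8 were not. The sequences below contrast both kinds. CACGTG is in capitals. Lamp1 had the most copies of any member, 4, all within 61 bases upstream of its start site, and its nearest MYC summit in any library was 53588 bases from an end of the gene.
Lamp1 (unbound), chr8:13158911-13159160, + strand: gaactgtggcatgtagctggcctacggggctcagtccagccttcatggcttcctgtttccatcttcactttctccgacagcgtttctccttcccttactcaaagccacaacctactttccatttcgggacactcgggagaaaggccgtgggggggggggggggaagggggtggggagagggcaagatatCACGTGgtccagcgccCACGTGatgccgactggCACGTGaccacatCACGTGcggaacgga
Naglu (bound in 2 libraries), chr11:101070009-101070038, + strand: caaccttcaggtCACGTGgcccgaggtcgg
Atp6v0d1 (bound in 2 libraries), chr8:105566050-105566079, - strand: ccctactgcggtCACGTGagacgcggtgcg
Atp6v0b (unbound), chr4:117887330-117887359, - strand: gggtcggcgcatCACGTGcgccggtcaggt
Ctsa (unbound), chr2:164833766-164833795, + strand: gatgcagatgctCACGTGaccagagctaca
Ctsd (unbound), chr7:142387908-142387937, - strand: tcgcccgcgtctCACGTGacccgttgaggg
Gla (unbound), chrX:134601182-134601211, - strand: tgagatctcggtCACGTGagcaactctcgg

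In these windows of 30 bases around the copy nearest to a start site, the base before CACGTG was T in all 6 genes, bound or not. Atp6v0d1, Ctsa, Ctsd and Gla also had A after it, so that the bound Atp6v0d1 and 3 unbound genes shared the same 8 bases. The windows shown are not all 14 members with CACGTG. All 6 bound ones held TCACGTG or CACGTGA, whereas Ctsf and Ctsl, among the 8 unbound ones, did not. Where a bound gene had the motif, the summit was often close to it, though the search favoured this. Motifs were sought only in windows at start sites, where most member summits lay, and no comparison distance was computed. The best summit was 0 bases from the centre of the motif at Naglu in WT replicate 3 and 8 in Het replicate 1, 15 at Mcoln1, 67 at Glb1, 64 and 111 at Atp6v0d1 and 98 at Gaa, but 504 at Atp6v1a. Of the member peaks at genes whose strand was known, 15 of 16 lay at the start side.

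**Figure D3:**
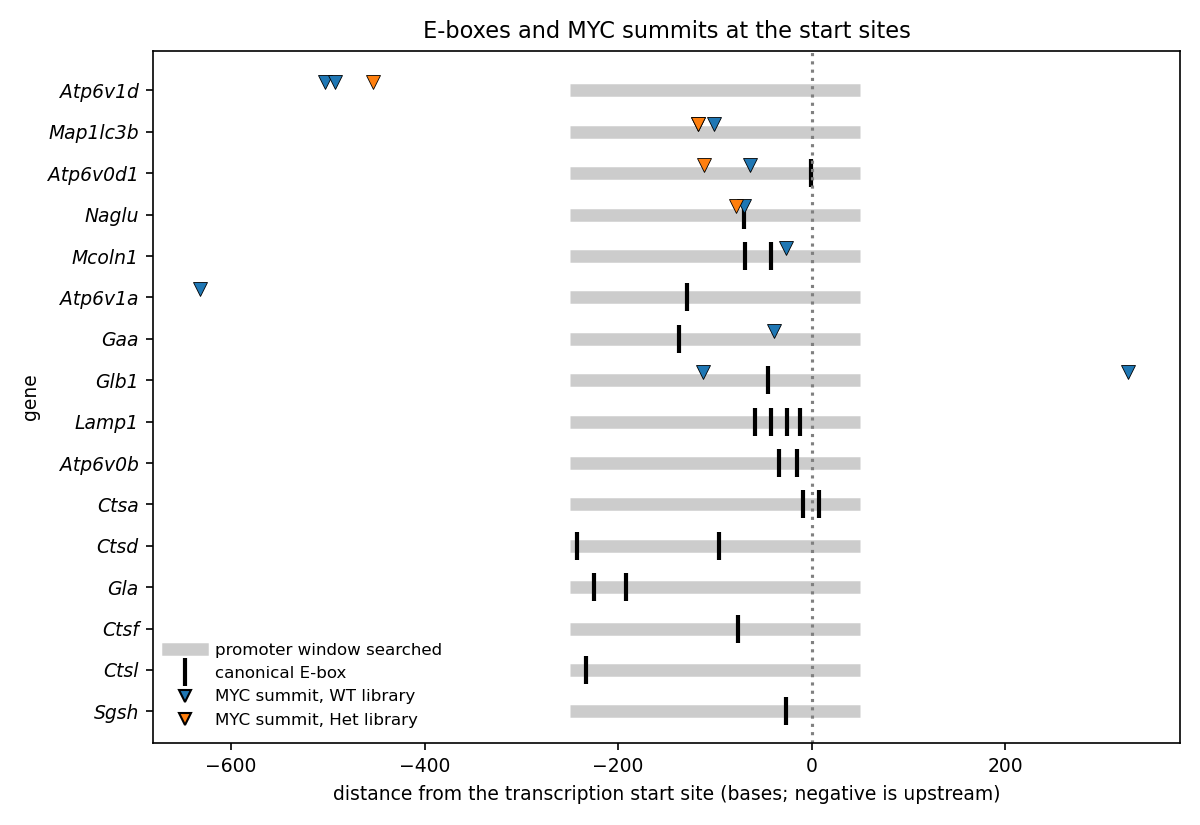
Position of canonical E-boxes (black ticks) and MYC summits (triangles, blue for WT and orange for Het libraries) relative to the transcription start site in bases (x axis) for members with a promoter window that hold an E-box or a peak (y axis); both Het summits of Map1lc3b coincide at -118, and Tpp1, bound at its other end, is left out. The 4 E-boxes of Lamp1 have no summit beside them, whereas the 3 summits of Map1lc3b have no canonical E-box beside them.

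Across all genes with a promoter window, CACGTG went together with MYC peaks, and the members followed the same order for at least 1 library. Of the 1559 genes with the motif, 32.5% were bound in at least 1 library and 20% in at least 2, compared with 13.8% and 7.24% of the 15933 genes without it. Among members, 6 of 14 with the motif (42.9%) and 3 of 19 without it (15.8%) were bound in at least 1 library. In at least 2 libraries the counts were 2 of 14 (14.3%) and 2 of 19 (10.5%). More copies did not go with a larger share among all genes: 32.3% of the 1408 genes with 1 copy, 33.8% of the 130 with 2 and 33.3% of the 21 with 3 or more were bound in at least 1 library. These shares are a description across genes that share libraries and were not tested.

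**Figure D4:**
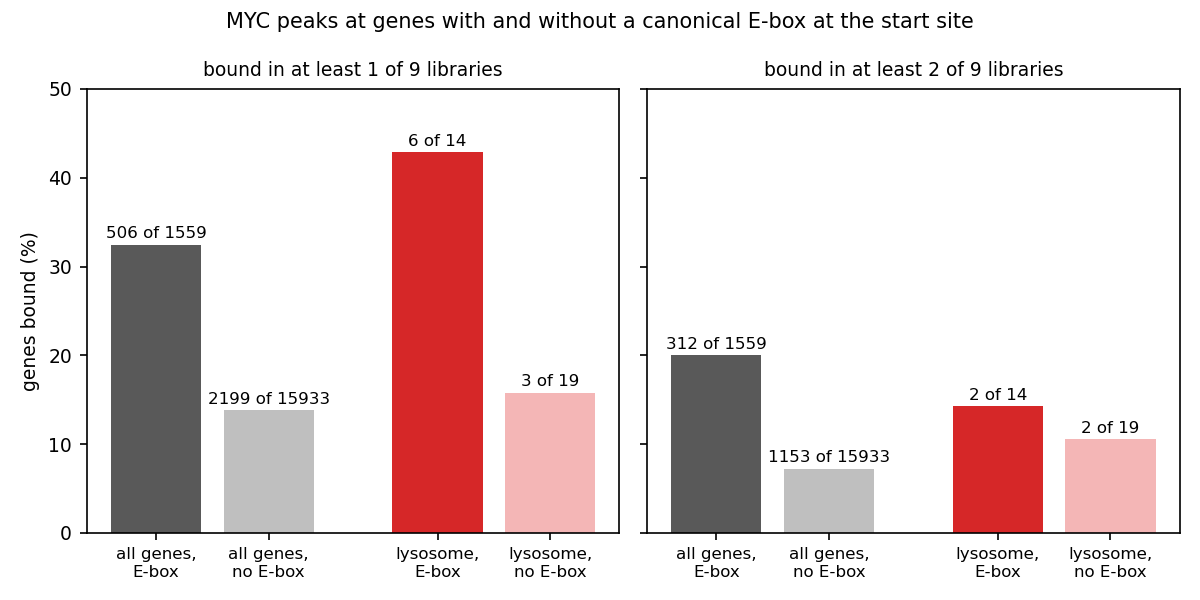
Percentage of genes bound (y axis) in at least 1 (left) or at least 2 (right) of the 9 libraries, for all protein-coding genes (grey) and the lysosome and autophagy genes (red), each split by a canonical E-box in the promoter window; the counts stand above the bars. Of members with the motif, 6 of 14 were bound at least once and 2 of 14 recurrently.

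The design asks whether MYC occupancy differs with Arid1a genotype. Members bound per library numbered 4 ± 6.08 in WT (SD, n = 3 libraries), 1.67 ± 1.53 in Het and 0 in all 3 Homo libraries, and the WT and Homo counts overlapped at 0. At least 1 WT library bound 11 members (14.3% of all genes), at least 1 Het library 4 (7.85%) and no Homo library any (1.03%). The 4 members bound in Het were the 4 recurrent genes, each of which was also bound in WT replicate 3. Atp6v1d was the only member bound in at least 2 WT and 0 Homo libraries, a pattern that 3.7% of all genes had, and Map1lc3b the only one bound in at least 2 Het and 0 Homo libraries (3.04% of all genes). No member was in at least 2 libraries of WT and none of Het (0.649% of all genes), or the reverse (0.0868%). An exact permutation test per gene of the number of bound libraries over the 3 genotypes called 0 of 40 members and 0% of all genes with Benjamini-Hochberg adjustment over 21887 genes, and 0 of both at an unadjusted p under 0.05. The smallest unadjusted p was 0.679 for a member and 0.143 for any gene by this exact test, and 0.0357 is the smallest that any pattern over 9 libraries can give. With that minimum, an adjusted p under 0.05 would need most of the 21887 genes to reach it. Only 14.9% of all genes were bound in any library, so the adjusted count of 0 was fixed in advance. It says nothing for or against a difference between genotypes.

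Map1lc3b was absent from all 3 Homo lists, which held 51 to 303 peaks, and the lists do not say how far below their limits a missing site lay. When summit reads and background of every library were scaled by calculation to the shallowest input and the same limit of −log10 p of at least 10 was applied, all 3 Map1lc3b peaks passed. So did Atp6v0d1 in Het replicate 1, Atp6v1d in Het replicate 2 and Atp6v1a in WT replicate 3, which left 4 members bound (7.16% of all genes) and 1 bound in at least 2 libraries (3.83%). This scaling matched the lowest local background of the inputs. It matched neither the depth of the MYC libraries nor the efficiency of the immunoprecipitation, whose part in the result was not tested. In bulk tumour chromatin, fewer cells with MYC at a site and less MYC per cell cannot be told apart.

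Further genes of the same system gave similar shares when pooled, but the lists differed. Of 141 other lysosome, autophagy and nutrient-sensing genes in 5 lists, 38 (27.0%) were bound in at least 1 library and 11 (7.80%) in at least 2, beside the 14.9% and 8.03% of all genes. In WT replicate 3 the share was 22.7%, beside 14.1% of all genes. At least 1 library bound 14 of 27 nutrient-sensing genes, 7 of 29 membrane and sorting proteins and 9 of 37 other autophagy genes. Of the 14 other V-ATPase subunits, 1 was bound. In 4 of the lists, the genes bound recurrently were 4 of 29 membrane and sorting proteins (Laptm4a, Abca2, Vps16 and Gnptab), 0 of 14 other V-ATPase subunits, 2 of 37 other autophagy genes (Atg4b, the protease that processes LC3, and Atg10) and 3 of 27 nutrient-sensing genes (Fnip2, Akt1s1 and Tbc1d7). The peaks of Vps16, Atg4b and Akt1s1 also lay at an end of another protein-coding gene. Fnip2, which encodes a partner of folliculin in the control of TFEB and mTORC1 at the lysosome, was bound in more libraries than any of the 40 genes, namely 2 WT, 3 Het and 1 Homo library, with folds from 6.81 to 20.8 (chromosome 3, span 79455971 to 79568151). Among the 181 genes of these lists and of the 40 together, it alone had a peak in a Homo library, beside 1.03% of all genes. The count of 1 was not tested against that share. Side by side, 10 of 18 circadian clock genes, another group known for E-boxes, were bound in at least 2 libraries (8.03% of all genes). In a Homo library 4 of them were bound (1.03% of all genes). The difference between the groups was not tested.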

How the data were processed

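Per the submitters' processing notes, the tools were MACS2 2.0.10.20131216, Bowtie2 2.2.3, HOMER and Picard, and the build was mm10. No limit for calling a peak is given in the sources used here. The 9 deposited peak lists, 1 per MYC library, give the authors' fold (a ratio over local background at the summit), −log10 p and −log10 q, and the summit offset. The deposited score, a whole number, was not used. No file of the 9 inputs was used.

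Gene spans and promoter windows came from RefSeq tables of GRCm38.p6, the assembly behind mm10. Strand was known for 33 of 40 members. Bound genes, the per-gene exact permutation test over 1680 assignments of the 9 libraries, and intervals were computed with Python 3.11.15 and SciPy 1.17.1. Folds and ranks were used to order peaks within a list; values from several lists are given side by side and show no change between them. Summit reads were solved from fold and p, as a Poisson upper tail. The fold was taken as reads plus 1 over background plus 1, both scaled to the input. A single whole number of reads matched the fold in 99.95% of the 10376 peaks, within a relative tolerance of 1e-05. The procedures were tested on simulated data. Members and lists were chosen with earlier results of these data known, so no test was run on the list. Every member bound in at least 1 library was named, and up to 4 genes per wider list; the recurrent genes of the list of further luminal proteins are not reported here. Windows of 250 bp and 5 kb, the start side only, peak overlap, stricter limits and left-out libraries were tried as alternatives.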

Additional observations from a re-analysis of the deposited data

How the results depend on the processing

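Members bound in at least 2 of 9 libraries (4 as reported) numbered 2 at a fold of at least 5 (6.88% of all genes), 1 after scaling to the shallowest input with a −log10 p of at least 10 (3.83%), 0 with each list reduced to its 51 highest peaks (0.169%), and between 2 and 4 with each library left out. Members bound in any library (11) numbered 7 at a −log10 p of at least 10 (11.9% of all genes), 4 after that scaling (7.16%), 0 in the 51 highest peaks (0.388%), and between 4 and 11 with each library left out. The single member in at least 2 WT and 0 Homo libraries became 0 at a −log10 q of at least 5, a fold of at least 5, a −log10 p of at least 10, the scaling and the 51 highest peaks, 2 within 5 kb, and lay between 0 and 1 with each library left out. The 11 further genes bound in at least 2 libraries numbered 6 at a −log10 p of at least 10, 6 after scaling, 0 in the 51 highest peaks, 7 within 250 bp and 17 within 5 kb (6.15%, 3.83%, 0.169%, 5.0% and 11% of all genes). The cause of these changes was not tested, except that stricter limits and shorter lists leave fewer peaks by construction, and no member peak ranked above 327 in any list, so that none could be among the 51 highest. No member passed the genotype test in any of the 20 alternatives. As given above, the adjusted test over the 9 libraries could not call any gene, so these counts of 0 are no measure of stability. Without WT replicate 1, 201 genes (0.918% of all genes) had an unadjusted p under 0.05 by the exact permutation test. CACGTG was in 39.4% of members when only the bases before the start site were searched. Samples with the same replicate number did not deviate together (correlations from -0.276 to 0.318 over 9 pairs, across bound genes), and with the replicate number as a block 0 members and 0 genes passed, but the smallest p that any pattern can give under this block is 0.111 by the exact permutation test, so this says nothing about stability. Of the other 310 values recomputed, 57 moved beyond 1.5 times or beyond their counting interval. At the depth of the Homo lists no statement on the members can be made beyond the limit that a count of 0 allows.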

Other observations

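The non-canonical E-box CACGCG, with its other strand CGCGTG, was in the promoter windows of 2 of 33 members, Map1lc3b and Atp6v0d1, compared with 13.7% of all genes with a window. Both of these members were bound in at least 2 libraries. Over all genes, 36.5% of the 2399 with this motif were bound in at least 1 library and 21.1% in at least 2, values near the 32.5% and 20% of genes with CACGTG. The motif was chosen after the values were seen and the relation was not tested.

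Genes were also counted by the base that flanks CACGTG, with motifs chosen after the values were seen. Of genes with TCACGTG or CACGTGA, 29.2% of 874 were bound in at least 1 library and 15.8% in at least 2. Of genes with CCACGTG or CACGTGG the shares were 34.3% and 22% of 851, and of genes with GCACGTG or CACGTGC 37.3% and 24.4% of 574. Of genes with ACACGTG or CACGTGT they were 29.4% and 19.6% of 428. The sets overlap, since a promoter can hold several copies, and no test was run. Among members, 6 of 12 with the T-flanked form, 2 of 7 with the C-flanked form, 0 of 5 with the G-flanked form and 2 of 2 with the A-flanked form were bound in at least 1 library.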
